A study of Mus with 18 samples.

Results

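The response of mouse lens epithelial cells (LECs) to injury was measured in mice that lack Egr1, to learn which genes still change after injury when this transcription factor is missing. The comparison takes the 6 libraries titled as Egr1 null, 3 at 0 h and 3 at 6 h, out of 18 libraries in the series, and no measured value entered that choice. Egr1KO mice were homozygous for a systemic allele in which an inserted neo cassette stops translation early and leaves a truncated product, so every tissue of the eye carried it, and not the lens alone. The strain was given as C57BL/6, although the study's stock name for the Egr1KO line also holds a strain other than C57BL/6. The mice were 3 to 5 months old and, per the study, of both sexes. The fiber cell mass was taken out of the lens of the first eye, leaving the capsule with its LECs in place, and the same was done to the second eye 6 h later, when both capsules were collected. The 0 h capsules thus came from mice whose other eye had been operated 6 h before, and each library pooled 5 capsules. Wild type (WT) and FosBcKO mice, the latter with floxed Fosb deleted in the lens by MLR10-Cre under a modified alpha-A crystallin promoter, were treated alike with 3 libraries per time, and share no library with Egr1KO. WT was used here to set each Egr1KO response beside that of intact mice.

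Removal of lens fiber cells models cataract surgery, and 6 h after it (6 h PCS, post cataract surgery) residual LECs are early in their wound response. In most cells, stress and growth signals first switch on immediate early transcription factors, which need no new protein to be made. Among these are Egr1, a zinc finger protein that binds GC-rich promoter elements, its relatives Egr2 and Egr3, and the Fos and Jun proteins that pair to form AP-1. These factors in turn act on genes of inflammation, matrix remodeling and feedback control. The lens itself is made of a single epithelial layer and of fiber cells packed with crystallins, and it has no blood vessels.

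The Egr1KO libraries held 9609295 to 13871592 read pairs counted in genes, and these depths set the precision of every value below. Levels are given as CPM, counts-per-million values (a gene's counted pairs scaled to the total of its library), in the order of replicates 1, 2 and 3. Lens epithelial markers were present in every library. The summed level of Foxe3, Pax6 and Gja1 lay between 1066 and 1074 CPM at 0 h and between 1086 and 1183 CPM at 6 h. Its members did not move together, since Gja1, a gap junction gene, was at 371, 398 and 383 CPM at 0 h and 319, 894 and 686 CPM at 6 h, while Pax6 was lower in 6 h replicates 2 and 3 than in any 0 h library. Read pairs that aligned outside annotated genes made up 11.2% ± 2.21 (SD, n = 3) of pairs at 0 h and 21.5% ± 2.19 (SD, n = 3) at 6 h, with no overlap between the groups (exact two-sided permutation test, p = 0.1, the smallest that 3 against 3 libraries allow). Mitochondrial genome genes with a symbol made up 3.97%, 4.94% and 4.08% of counted pairs at 0 h and 13.7%, 10.3% and 13.1% at 6 h. This share is part of the total to which the CPM of every other gene is scaled. What lies behind its rise was not tested. The first principal component over the 6 libraries put the 0 h libraries at -64.9, -48.6 and -69.2 and the 6 h libraries at 20.98, 89.4 and 72.3. Of the 6 h libraries, replicate 1 thus lay nearest to the 0 h libraries.

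Egr1 RNA itself rose in Egr1KO. Its level was 285, 106 and 171 CPM at 0 h and 4463, 2083 and 3472 CPM at 6 h. All 6 h libraries lay far above all 0 h libraries (log2 fold change 4.23, SE 0.47, edgeR FDR 0.00260). In WT, Egr1 was at 165, 66.3 and 141 CPM at 0 h and 2046, 1627 and 1438 CPM at 6 h, with a log2 fold change of 3.69 (SE 0.38, edgeR FDR 0.00127). The difference between these responses was 0.52 on the log2 scale (SE 0.74, edgeR interaction FDR 0.908). Counts were made over the whole gene, so pairs from the interrupted transcript are included and the Egr1 level does not check the genotype labels.

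In Egr1KO LECs, 1353 of 14586 tested genes were higher at 6 h PCS and 393 were lower, which is 9.28% and 2.69% of the genes tested. A gene was called when its false discovery rate (FDR, edgeR quasi-likelihood F-test with Benjamini-Hochberg adjustment) was at most 0.05 and its change exceeded 2-fold. Over all genes tested the median log2 fold change was 0.00299, and it was 2.16 for genes called higher and -1.23 for genes called lower. Without regard to direction, 12% of genes tested were called. All 6 h libraries lay above all 0 h libraries in 18.1% of genes tested and below them in 25.2%. Nothing in the labels ties pools of the same number to the same mice, and p-values measure the spread between these pools. The count moved with single libraries. It was 534 without 0 h replicate 3, 752 without 0 h replicate 1, 1000 without 0 h replicate 2, 779 without 6 h replicate 3 and 3033 without 6 h replicate 1, and 456 of the 1746 genes were called in all 6 fits that left out a library. Without the fold minimum, 3089 genes were called.

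Gene symbols were at hand for 5927 of the 14586 tested genes, and changed genes are over-represented among them: 18.2% were called higher and 3.07% lower, with a median log2 fold change of 0.39. The lists below are to be read against these shares. Over 29 lists of genes grouped by known role, 281 of 430 members had a symbol and the others are not analysed here. Of the 266 members tested, 127 were called higher and 11 lower, with a median log2 fold change of 1.25. The counts fell to 69 higher and 6 lower without 0 h replicate 3 and to 84 higher and 6 lower without 6 h replicate 3. Without the filter on low counts they were 87 higher and 10 lower. Losses of single calls in that setting are not given with the genes below. The plot of lists shows each list's calls. Where leaving out a library moved a list's count by more than 1.5 times, this is given with the list.

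**Figure D1:**
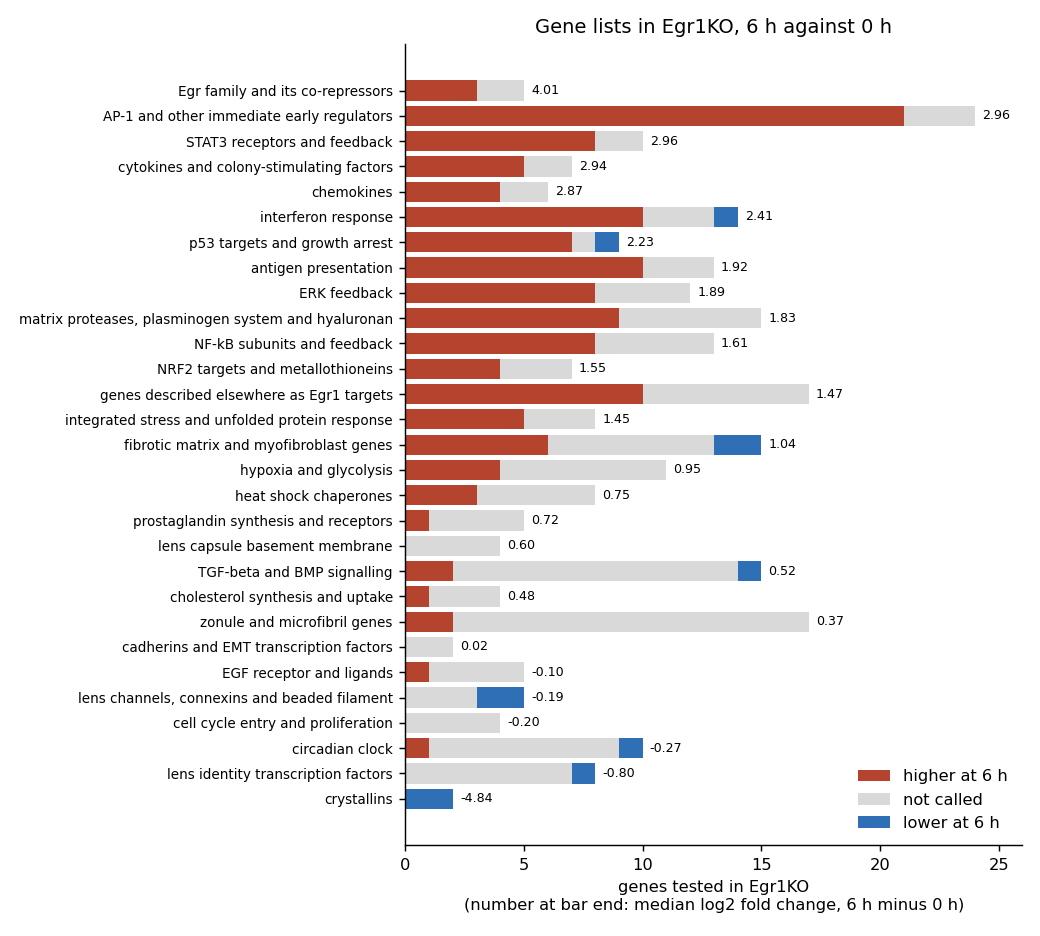
Genes of each list tested in Egr1KO, 6 h against 0 h, split into those called higher (red), not called (grey) and called lower (blue) by edgeR (FDR at most 0.05, over 2-fold). The number at each bar's end is the median log2 fold change. AP-1 and other immediate early regulators have 21 of 24 members higher, and the crystallins have both of their tested members lower.

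The immediate early factors answered injury without Egr1. Egr2 and Egr3, zinc finger factors that bind the same kind of DNA element as Egr1, both rose. Egr2 was at 1.06, 1.06 and 1.14 CPM at 0 h and 17.9, 25.2 and 22.5 CPM at 6 h (log2 fold change 4.37, SE 0.27, edgeR FDR 0.000282). Egr3 was at 6.45, 3.46 and 3.43 CPM at 0 h and 66.3, 61.5 and 80.1 CPM at 6 h (log2 fold change 4.01, SE 0.29, edgeR FDR 0.000510). In both genes every 6 h library stood far above every 0 h library, and the 6 h libraries were close to each other. The co-repressors that bind Egr proteins were not called. Nab1 was at 49.1, 51.5 and 54.3 CPM at 0 h and 35.04, 61.5 and 49.7 CPM at 6 h and Nab2 at 10.4, 11.2 and 7.701 CPM at 0 h and 16.8, 5.19 and 10.1 CPM at 6 h, with overlap between the groups for each (edgeR FDR 0.904 and 0.753). The 3 Egr genes stayed called whichever Egr1KO library was left out.

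Among AP-1 subunits and other immediate early regulators, 21 of 24 tested genes were higher at 6 h PCS and none was lower, with a median log2 fold change of 2.96. Fosb, a Fos family subunit of AP-1, had the largest increase in this list. Its level was 5.14, 4.704 and 12.9 CPM at 0 h and 3044, 464 and 1637 CPM at 6 h (log2 fold change 7.91, SE 0.89, edgeR FDR 0.00280). Fos, the founding member of that family, was at 102.4, 50.4 and 90.5 CPM at 0 h and 3989, 469.7 and 1663 CPM at 6 h (log2 fold change 4.74, SE 0.79, edgeR FDR 0.00891). Klf2, a zinc finger factor best known from blood vessel lining cells, was at 2.77, 1.15 and 0.312 CPM at 0 h and 79.98, 13.3 and 61.2 CPM at 6 h (log2 fold change 5.22, SE 0.87, edgeR FDR 0.00888). Each 6 h library exceeded each 0 h library in all 3 genes, yet the 6 h libraries themselves were far apart, with replicate 1 on top and replicate 2 at the bottom. Jun, the partner of Fos in AP-1, ran the same way with 713, 156 and 342 CPM at 0 h and 3213, 494 and 1476 CPM at 6 h. Its 0 h replicate 1 lay above its 6 h replicate 2, and Jun was not called (log2 fold change 2.18, SE 0.76, edgeR FDR 0.0765). Fosl2, another Fos relative, reached FDR 0.0139 in edgeR but changed by less than 2-fold, and Klf10, a factor induced by TGF-beta, was not called (edgeR FDR 0.527). The count of genes called higher was 14 without 0 h replicate 3. Foxq1, a forkhead factor and the only member of the list that failed the filter on low counts in Egr1KO, stayed low there. Its level was 0.653, 0.672 and 0 CPM at 0 h and 1.19, 0.360 and 0.565 CPM at 6 h in Egr1KO, with overlap between the times, and 0, 0 and 0 CPM at 0 h and 3.205, 7.66 and 3.05 CPM at 6 h in WT, where it was called higher (edgeR FDR 0.00461). The difference between these responses did not pass the test (edgeR interaction FDR 0.593).

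**Figure D2:**
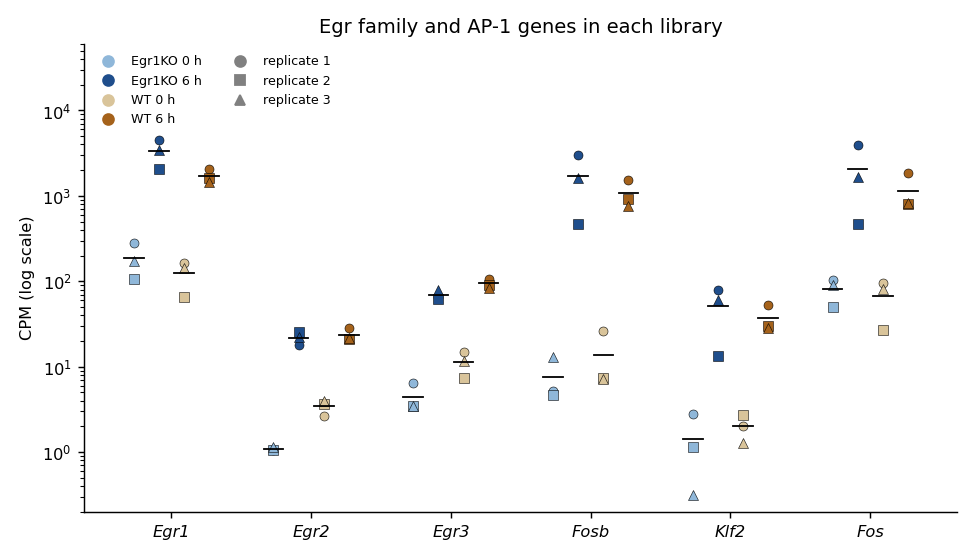
CPM (log axis) of the 3 Egr genes and of the 3 AP-1 list genes with the largest increase, in each of the Egr1KO (blue) and WT (brown) libraries at 0 h (pale) and 6 h (dark). Symbols are replicates and bars are group means. For Fosb the Egr1KO libraries at 6 h lie between 464 and 3044 CPM, and at 0 h between 4.70 and 12.9 CPM.

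Genes that have been described elsewhere as Egr1 targets also changed in its absence. Of 17 tested, 10 were called higher and none lower, with a median log2 fold change of 1.47. F3, which encodes tissue factor, the starter of blood clotting, was at 0.490, 4.22 and 2.08 CPM at 0 h and 15.2, 237 and 146 CPM at 6 h (log2 fold change 5.92, SE 1.07, edgeR FDR 0.0113). Its 6 h libraries all exceeded the 0 h libraries, and 6 h replicate 1 was by far the lowest of its group. Arc, a neuronal immediate early gene, was at 4.08, 5.47 and 4.79 CPM at 0 h and 91.6, 94.2 and 142 CPM at 6 h (log2 fold change 4.58, SE 0.26, edgeR FDR 0.000170). Among members that did not pass the test were the growth factor genes Pdgfa (edgeR FDR 0.181) and Tgfb1 (edgeR FDR 0.653). Nab2, given above, is also in this list and was not called (log2 fold change 0.21, SE 0.43, edgeR FDR 0.753). In WT its log2 fold change was 1.13 (SE 0.39, edgeR FDR 0.0643), and the difference did not pass the test (edgeR interaction FDR 0.815). The list's count was 4 without 0 h replicate 3 and 6 without 6 h replicate 3, and the edgeR call was lost for F3 without 0 h replicate 3 (FDR 0.0561).

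Inflammatory mediators rose as well. Csf3 encodes the granulocyte colony-stimulating factor G-CSF. It had no count in any 0 h library. At 6 h its level was 7.72, 73.5 and 36.3 CPM, at least 139-fold higher than 3 counts per library would give at 0 h (edgeR FDR 0.00933). Il6, the fever and acute phase cytokine, had 3 counts in all at 0 h and 264 at 6 h, a ratio of 82.1 (95% interval 27.8 to 401) that covers counting error only, with 8.31, 5.98 and 9.13 CPM at 6 h (edgeR FDR 0.00489). The 6 h libraries were close to each other for Il6, while for Csf3 replicate 1 was far below replicate 2. Csf1, the macrophage colony-stimulating factor, was at 18.6, 15.3 and 15.3 CPM at 0 h and 45.3, 199 and 144 CPM at 6 h (log2 fold change 3.01, SE 0.47, edgeR FDR 0.00728). Of 7 cytokine genes tested, 5 were higher and none lower, with a median log2 fold change of 2.94. The 2 others were Il1b (log2 fold change 0.77, SE 0.49, edgeR FDR 0.283) and the alarmin gene Il33 (log2 fold change 0.90, SE 0.67, edgeR FDR 0.363). The cytokine count was 3 without 0 h replicate 2 or 3 and without 6 h replicate 2 or 3, and it was 7 without 6 h replicate 1. Il19, an interleukin-10 family cytokine, failed the filter on low counts and was not tested. It had no count at 0 h and 1.19, 17.7 and 0.753 CPM at 6 h, so that nearly all of its counts came from 6 h replicate 2.

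Chemokines that draw neutrophils and monocytes were among the genes called. Cxcl2 was at 1.39, 1.25 and 2.29 CPM at 0 h and 9.601, 95.2 and 51.5 CPM at 6 h (log2 fold change 5.01, SE 0.80, edgeR FDR 0.00795). Ccl7 was at 11.7, 11.6 and 8.53 CPM at 0 h and 43.3, 86.7 and 102.4 CPM at 6 h (log2 fold change 2.92, SE 0.32, edgeR FDR 0.00197). Cxcl16, a transmembrane chemokine, had 0, 1.73 and 1.14 CPM at 0 h and 6.73, 11.4 and 13.3 CPM at 6 h (log2 fold change 3.53, SE 0.87, edgeR FDR 0.0273). For each of these the 6 h libraries lay above the 0 h libraries, with replicate 1 the lowest of the 3. Cxcl1 also rose (log2 fold change 2.83, SE 0.25, edgeR FDR 0.000848), while Cxcl10 and Cxcl14 were not called (edgeR FDR 0.110 and 0.569). In all, 4 of 6 tested chemokines were higher and none was lower. Only 9 of the 21 chemokines listed had a symbol. The edgeR call was lost for Cxcl16 without 0 h replicates 2 and 3 or 6 h replicate 3 (FDR 0.0543 to 0.0975). Ptgs2, the inducible cyclooxygenase of prostaglandin synthesis, was at 7.02, 10.4 and 5.93 CPM at 0 h and 22.5, 135 and 104.2 CPM at 6 h (log2 fold change 3.52, SE 0.60, edgeR FDR 0.00917), and was the only gene called of 5 prostaglandin genes tested. That call was lost for Ptgs2 without 0 h replicate 3 (FDR 0.0501), and 2 prostaglandin genes were called without 0 h replicate 1.

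Leukocyte markers were measured in the same libraries. Of 10 leukocyte markers, 6 had a symbol, and their summed level was between 17.2 and 24.2 CPM at 0 h and between 21.7 and 40.5 CPM at 6 h. Ptprc, which encodes the pan-leukocyte protein CD45, was called higher, from 0.898, 0.576 and 1.46 CPM to 7.42, 3.32 and 3.96 CPM (log2 fold change 2.38, SE 0.59, edgeR FDR 0.0264). The macrophage genes Csf1r and Lyz2 were not called (edgeR FDR 0.830 and 0.973), and no marker was at 0 in all libraries. The part of leukocytes in the cytokine and chemokine values was not tested. In these bulk libraries, a change in the number of cells of a type and a change in RNA per cell cannot be told apart.

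Feedback genes of cytokine receptor signaling rose. Of 10 genes of the STAT3 axis tested, 8 were higher and none lower, with a median log2 fold change of 2.96. Socs3, which turns off receptors of the interleukin-6 family, was at 29.4, 23.3 and 25.7 CPM at 0 h and 1817, 133 and 534 CPM at 6 h (log2 fold change 5.08, SE 0.91, edgeR FDR 0.0110). Replicate 1 stood far above the other 6 h libraries for Socs3. Socs1 and Socs2, relatives that also curb cytokine receptors, were at 13.96, 14.8 and 20.2 CPM and 3.07, 6.34 and 5.37 CPM at 6 h, each above all 0 h libraries (log2 fold changes 3.58 and 4.23, SE 0.57 and 0.97, edgeR FDR 0.00701 and 0.0204). The kinase genes Jak1 and Jak2 changed by less than 2-fold (log2 fold changes 0.77 and 0.76, SE 0.13 and 0.18, edgeR FDR 0.00828 and 0.0214). The STAT3 count was 4 without 6 h replicate 3 and 5 without any 1 of the 0 h libraries. Calls were lost for Socs3 without 0 h replicates 1 and 3 (FDR 0.0535 to 0.0551) and for Socs2 without 0 h replicates 1 and 2 or 6 h replicate 3 (FDR 0.0534 to 0.0792), all from edgeR.

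Of 13 tested genes of the NF-kB pathway, 8 were higher and none lower, with a median log2 fold change of 1.61. Nfkbiz, an inducible nuclear inhibitor-like cofactor, was at 20.2, 19.1 and 22.7 CPM at 0 h and 766, 81.7 and 221 CPM at 6 h (log2 fold change 4.20, SE 0.79, edgeR FDR 0.0124). Nfkb2, the p100 subunit, was at 13.9, 22.3 and 21.2 CPM at 0 h and 98.98, 108 and 114 CPM at 6 h (log2 fold change 2.54, SE 0.21, edgeR FDR 0.000596). Birc3, an inhibitor of apoptosis switched on by NF-kB, was at 6.12, 4.61 and 6.87 CPM at 0 h and 49.7, 33.95 and 59.99 CPM at 6 h (log2 fold change 3.09, SE 0.30, edgeR FDR 0.00113). Nfkb2 and Birc3 were close among the 6 h libraries, whereas Nfkbiz was highest in replicate 1 and lowest in replicate 2. Nfkbia, which encodes the inhibitor I-kappa-B alpha, was at 244, 62.2 and 110.4 CPM at 0 h and 478, 249 and 339 CPM at 6 h and was not called although its groups did not overlap (edgeR FDR 0.0759). Rela, the p65 subunit, had a log2 fold change of 0.67 (SE 0.20, edgeR FDR 0.0486) and stayed under the fold minimum. The NF-kB count was 3 without 0 h replicate 3, 4 without 6 h replicate 3 and 5 without 0 h replicate 2, and the edgeR call was lost for Nfkbiz without 0 h replicates 1, 2 and 3 (FDR 0.0526 to 0.0602).

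Feedback inhibitors of ERK signaling rose as well. Dusp5, a phosphatase that inactivates ERK in the nucleus, was at 10.6, 23.9 and 10.8 CPM at 0 h and 148, 290.4 and 398 CPM at 6 h (log2 fold change 4.27, SE 0.46, edgeR FDR 0.00237). Dusp10, which acts on stress kinases, was at 3.998, 5.86 and 2.602 CPM at 0 h and 9.502, 136 and 111 CPM at 6 h (log2 fold change 4.39, SE 0.88, edgeR FDR 0.0150). Dusp4, another nuclear phosphatase, was at 8.89, 6.43 and 6.04 CPM at 0 h and 10.4, 63.4 and 38.4 CPM at 6 h (log2 fold change 2.42, SE 0.56, edgeR FDR 0.0232). In Dusp10 and Dusp4, 6 h replicate 1 lay close to the 0 h libraries and the other 6 h libraries well above them. Of 12 ERK feedback genes tested, 8 were higher and none lower (median log2 fold change 1.89). The count was 2 without any 1 of the 0 h libraries or without 6 h replicate 3, and 5 without 6 h replicate 2. The edgeR call was lost for Dusp10 without 0 h replicates 1, 2 and 3 or 6 h replicates 2 and 3 (FDR 0.0501 to 0.0684) and for Dusp4 without 0 h replicates 1, 2 and 3 or 6 h replicate 3 (FDR 0.0691 to 0.0915). Hbegf, a membrane-bound ligand of the EGF receptor, rose from 185, 129 and 129 CPM to 307, 668 and 493 CPM (log2 fold change 1.77, SE 0.27, edgeR FDR 0.00563), and was the only one of 5 genes of the EGF receptor family and its ligands called, with 2 called without 6 h replicate 1. Egfr itself was at 80.6, 126 and 80.7 CPM at 0 h and 77.8, 108 and 71.7 CPM at 6 h (edgeR FDR 0.740).

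Genes of matrix breakdown and of the plasminogen system gave some of the largest changes. Plaur, the receptor that holds urokinase at the cell surface, was at 0, 0.384 and 0 CPM at 0 h and 5.34, 61.2 and 42.7 CPM at 6 h (log2 fold change 8.10, SE 1.23, edgeR FDR 0.00687). Plau, which encodes urokinase, was at 0.490, 0.192 and 0.104 CPM at 0 h and 4.85, 26.7 and 18.4 CPM at 6 h (log2 fold change 5.90, SE 0.78, edgeR FDR 0.00394). Replicate 1 at 6 h was between the 0 h libraries and the other 6 h libraries for both genes. Of 15 genes tested in this list, 9 were higher and none lower, with a median log2 fold change of 1.83, and the count was 5 without 0 h replicate 3. Cd44, the hyaluronan receptor, was at 466, 551 and 500.2 CPM at 0 h and 421, 716 and 550.2 CPM at 6 h and was not called (edgeR FDR 0.438). Mmp10, a matrix metalloproteinase, failed the filter on low counts with 0, 0.576 and 0 CPM at 0 h and 0.0990, 22.4 and 11.2 CPM at 6 h.

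Genes linked to fibrosis moved in both directions. Acta2, which encodes alpha smooth muscle actin, the hallmark of myofibroblasts, fell. It was at 284, 238 and 258 CPM at 0 h and 62.1, 86.4 and 81.3 CPM at 6 h (log2 fold change -1.71, SE 0.16, edgeR FDR 0.000849). Tagln, a smooth muscle actin-binding protein often read with Acta2, was at 0.816, 0.480 and 1.04 CPM at 0 h and 3.76, 37.8 and 26.9 CPM at 6 h (log2 fold change 4.88, SE 0.84, edgeR FDR 0.00958). The 2 genes thus went opposite ways, each with no overlap between times. Tgfbi, a matrix protein induced by TGF-beta, was at 2.12, 3.55 and 2.91 CPM at 0 h and 11.6, 136 and 98.3 CPM at 6 h (log2 fold change 4.87, SE 0.83, edgeR FDR 0.00929). Thbs1, which encodes thrombospondin, was at 21.5, 13.9 and 11.6 CPM at 0 h and 35.4, 272 and 237 CPM at 6 h (log2 fold change 3.56, SE 0.68, edgeR FDR 0.0130). For Tagln, Tgfbi and Thbs1, 6 h replicate 1 was by far the lowest 6 h library. Itgb8, an integrin subunit that activates latent TGF-beta, fell (log2 fold change -1.04, SE 0.26, edgeR FDR 0.0278). In all, 6 of 15 tested genes were higher and 2 lower, while the collagen genes Col1a1 and Col1a2 were not called (edgeR FDR 0.931 and 0.465). The count of higher genes was 3 without any 1 of the 0 h libraries, and calls were lost for Tagln without 0 h replicate 1 (FDR 0.0506), Tgfbi without 0 h replicate 1 (FDR 0.0506), Thbs1 without 0 h replicates 2 and 3 or 6 h replicate 2 (FDR 0.0510 to 0.0628) and Itgb8 without 0 h replicates 1 and 3 or 6 h replicates 1 and 3 (FDR 0.0257 to 0.108), the last in part through the fold minimum.

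Within TGF-beta and BMP signaling, 2 of 15 tested genes were higher and 1 was lower. Tgfb3, a TGF-beta ligand, fell from 35.5, 35.5 and 42.5 CPM to 9.01, 9.300 and 9.32 CPM (log2 fold change -1.98, SE 0.19, edgeR FDR 0.00102), and its 6 h libraries were nearly equal. Inhba, which encodes the activin A subunit, was at 223, 273 and 189 CPM at 0 h and 254, 886 and 624 CPM at 6 h (log2 fold change 1.40, SE 0.38, edgeR FDR 0.0368). Bmp2 was at 15.8, 32.7 and 29.1 CPM at 0 h and 37.6, 125 and 75.2 CPM at 6 h (log2 fold change 1.65, SE 0.42, edgeR FDR 0.0311). For Inhba, 6 h replicate 1 lay within the range of the 0 h libraries, and for Bmp2 just above it. Tgfb2, another ligand of the family, was at 521, 516 and 526 CPM at 0 h and 504, 1247 and 885 CPM at 6 h and was not called (edgeR FDR 0.0653). Calls were lost for Inhba without 0 h replicates 1, 2 and 3 or 6 h replicates 2 and 3 (FDR 0.0838 to 0.129) and Bmp2 without 0 h replicates 1, 2 and 3 or 6 h replicates 2 and 3 (FDR 0.0671 to 0.0998). Without 6 h replicate 1, the list held 4 higher genes. Neither of the 2 tested genes of the list of cadherins and EMT transcription factors was called. These were Snai2 (log2 fold change 0.30, SE 0.64, edgeR FDR 0.760) and Zeb2 (log2 fold change -0.27, SE 0.12, edgeR FDR 0.144).

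Of 17 tested genes of the zonule, the fibers of microfibrils that hold the lens, 2 were higher and none lower. Their median log2 fold change was 0.37. Over all tested genes with a symbol, 18.2% were higher and 3.07% lower, with a median of 0.39, so the list did not stand out. The study itself pointed to this group on these samples, so its count is no independent evidence. The study compared Egr1KO with WT at 6 h, and the count here, within Egr1KO, does not check that comparison. Ltbp1, a latent TGF-beta binding protein of microfibrils, was at 59.2, 101.7 and 80.1 CPM at 0 h and 113, 248 and 163 CPM at 6 h (log2 fold change 1.16, SE 0.28, edgeR FDR 0.0242). Fbln2, which encodes fibulin-2, was at 1.06, 2.59 and 1.46 CPM at 0 h and 4.36, 6.42 and 4.803 CPM at 6 h (log2 fold change 1.66, SE 0.47, edgeR FDR 0.0395). Fbn1, the main microfibril protein fibrillin-1, was at 141, 485 and 347 CPM at 0 h and 345, 375 and 304 CPM at 6 h, and its lowest value came from 0 h replicate 1 (edgeR FDR 0.821). Calls were lost for Ltbp1 without 0 h replicates 1 and 3 or 6 h replicates 2 and 3 (FDR 0.0375 to 0.0932), in part through the fold minimum, and Fbln2 without 0 h replicates 1, 2 and 3 or 6 h replicates 2 and 3 (FDR 0.0548 to 0.139). Without 6 h replicate 1, the list held 3 higher genes. Pigment genes of iris and ciliary tissue, to which the zonule attaches, were higher at 6 h. Their summed level over 4 genes was 50.2, 15.2 and 18 CPM at 0 h and 94.9, 219 and 311 CPM at 6 h, and 3 of 4 were called higher, of which Dct was at 30.7, 7.49 and 9.99 CPM at 0 h and 64.5, 142 and 239.8 CPM at 6 h (log2 fold change 3.26, SE 0.65, edgeR FDR 0.0150). Their part in the zonule values was not tested.

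Most genes of antigen presentation rose. Of 13 genes tested, 10 were higher and none lower, with a median log2 fold change of 1.92. This list too was pointed to by the study on these samples, again in Egr1KO against WT at 6 h. H2-Q4, a nonclassical class I gene, was at 6.94, 12.1 and 10.8 CPM at 0 h and 281, 352 and 294 CPM at 6 h (log2 fold change 5.01, SE 0.23, edgeR FDR 0.000136). H2-D1, a classical class I heavy chain, was at 16.7, 18.8 and 16.03 CPM at 0 h and 125, 92.9 and 90.5 CPM at 6 h (log2 fold change 2.64, SE 0.19, edgeR FDR 0.000488). Nlrc5, the transactivator of class I genes, was at 2.28, 0.384 and 1.35 CPM at 0 h and 10.4, 15.1 and 23.7 CPM at 6 h (log2 fold change 3.64, SE 0.59, edgeR FDR 0.00728). Each stood clear of the 0 h libraries in all 3 libraries at 6 h. Class II genes behaved otherwise among replicates. Cd74, the class II invariant chain, was at 8.08, 12.6 and 10.1 CPM at 0 h and 71.8, 17.2 and 20.8 CPM at 6 h (log2 fold change 1.92, SE 0.57, edgeR FDR 0.0485), so that replicate 1 was far above the others. Ptprc was highest in the same library. The part of leukocytes in the class II values was not tested. Class I genes are near-identical in stretches, so their counts are uncertain. The list's count was 5 without 0 h replicate 1 or 3 or 6 h replicate 3 and 6 without 0 h replicate 2.

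Interferon response genes mostly rose. Of 14 tested, 10 were higher and 1 was lower, with a median log2 fold change of 2.41. Gbp2, a guanylate-binding protein, was at 5.39, 8.45 and 3.54 CPM at 0 h and 21.7, 243 and 116 CPM at 6 h (log2 fold change 4.47, SE 0.80, edgeR FDR 0.0109). Rsad2, which encodes the antiviral enzyme viperin, was at 1.71, 0.0960 and 0 CPM at 0 h and 6.24, 38.6 and 12.3 CPM at 6 h (log2 fold change 4.87, SE 1.10, edgeR FDR 0.0214). Ifit2, an interferon-induced RNA-binding protein, fell from 31.01, 45.98 and 30.8 CPM to 14.5, 9.16 and 14.5 CPM (log2 fold change -1.43, SE 0.27, edgeR FDR 0.0115). Its relatives Ifit1 and Ifit3 were called higher (log2 fold changes 2.34 and 2.63, SE 0.28 and 0.43, edgeR FDR 0.00282 and 0.00755). Isg20, an exonuclease gene, was at 0, 0.480 and 0 CPM at 0 h and 1.88, 3.100 and 2.54 CPM at 6 h (log2 fold change 3.97, SE 1.08, edgeR FDR 0.0355). Irf1, a factor that starts this program, was at 65.8, 24.1 and 38.1 CPM at 0 h and 487, 43.2 and 142 CPM at 6 h and was not called (edgeR FDR 0.0690). The count of higher genes was 4 without 0 h replicate 3 and 5 without 6 h replicate 3, and calls were lost for Gbp2 without 0 h replicates 1 and 3 (FDR 0.0538 to 0.0552), Rsad2 without 0 h replicates 2 and 3 or 6 h replicates 2 and 3 (FDR 0.0563 to 0.0712) and Isg20 without 0 h replicates 1 and 3 or 6 h replicates 2 and 3 (FDR 0.0720 to 0.127).

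Stress programs were engaged without Egr1 too. Mt2 and Mt1 encode metallothioneins, small proteins that bind zinc and copper. Mt2 was at 9.14, 10.4 and 9.68 CPM at 0 h and 125, 232 and 253 CPM at 6 h (log2 fold change 4.44, SE 0.27, edgeR FDR 0.000282). Mt1 was at 19.1, 19.4 and 17.6 CPM at 0 h and 148, 268 and 320.5 CPM at 6 h (log2 fold change 3.77, SE 0.28, edgeR FDR 0.000529). Srxn1, the NRF2 target sulfiredoxin, was at 19.7, 20.9 and 21.7 CPM at 0 h and 63.3, 545 and 490.1 CPM at 6 h (log2 fold change 4.17, SE 0.70, edgeR FDR 0.00917). All 3 had replicate 1 as their lowest 6 h library, and for Srxn1 that library was far below the others. Of 7 genes in this list, 4 were higher and none lower. Hmox1, the classic NRF2 target heme oxygenase, was not called (edgeR FDR 0.318). These 4 calls held whichever Egr1KO library was left out.

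Among heat shock chaperones, 3 of 8 tested were higher and none was lower. Dnajb1, a co-chaperone of Hsp70, was at 85.3, 50.8 and 60.05 CPM at 0 h and 487, 274 and 298 CPM at 6 h (log2 fold change 2.50, SE 0.30, edgeR FDR 0.00312). Bag3, another co-chaperone, rose (log2 fold change 1.86, SE 0.28, edgeR FDR 0.00557), and so did Hspa1a (log2 fold change 2.19, SE 0.29, edgeR FDR 0.00389), an Hsp70 gene whose near-identical copy Hspa1b makes its count uncertain. Of 8 genes of the integrated stress and unfolded protein response, 5 were higher, with Atf4, its central factor, at 93.8, 90.5 and 92.9 CPM at 0 h and 165, 376 and 330.1 CPM at 6 h (log2 fold change 1.69, SE 0.26, edgeR FDR 0.00614). Sesn2, a stress-induced regulator of mTORC1, and Ppp1r15a, which restores translation, were also called, with values of 2.92 for Sesn2 (SE 0.71, edgeR FDR 0.0269) and 2.22 for Ppp1r15a (SE 0.45, edgeR FDR 0.0153) on the log2 fold change scale. This count was 2 without 0 h replicate 2 or 3 or 6 h replicate 3 and 3 without 0 h replicate 1, and calls were lost for Sesn2 without 0 h replicates 1, 2 and 3 or 6 h replicate 3 (FDR 0.0681 to 0.103) and Ppp1r15a without 0 h replicates 2 and 3 or 6 h replicate 3 (FDR 0.0531 to 0.0681).

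Most growth arrest genes tested rose. Of 14 cell cycle genes listed, only 4 were tested. With 18.2% of tested genes with a symbol called higher and 3.07% lower, 4 genes are too few to set against them. Plk2, a polo-like kinase induced by stress, was at 13.9, 22.2 and 14.8 CPM at 0 h and 157, 337 and 421 CPM at 6 h (log2 fold change 4.23, SE 0.39, edgeR FDR 0.00116). Plk3, its relative, was at 1.14, 1.34 and 1.25 CPM at 0 h and 9.01, 23.4 and 13.3 CPM at 6 h (log2 fold change 3.64, SE 0.40, edgeR FDR 0.00197). Gadd45g, a growth arrest and DNA damage gene, was at 16.6, 25.2 and 24.1 CPM at 0 h and 373, 193 and 213 CPM at 6 h (log2 fold change 3.64, SE 0.33, edgeR FDR 0.00102). Every 6 h library exceeded every 0 h library in these genes, with replicate 1 lowest for the Plk genes and highest for Gadd45g. Of 9 genes of the p53 and growth arrest list, 7 were higher and 1 lower. Sesn1, a sestrin like Sesn2, was the lower one (log2 fold change -1.23, SE 0.28, edgeR FDR 0.0202), and the call was lost for Sesn1 without 0 h replicates 1, 2 and 3 or 6 h replicate 3 (FDR 0.0649 to 0.0721). None of the 4 cell cycle genes tested was called, among them the S and G2 phase gene Top2a (log2 fold change -0.92, SE 0.31, edgeR FDR 0.0661), and 1 was called lower without 6 h replicate 1.

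Of 11 hypoxia and glycolysis genes, 4 were higher and none lower. Hk2, a hexokinase that starts glycolysis, was at 244, 189 and 176 CPM at 0 h and 631, 1249 and 1049 CPM at 6 h (log2 fold change 2.31, SE 0.24, edgeR FDR 0.00163). Pfkfb3, which raises glycolytic flux, rose (log2 fold change 1.59, SE 0.23, edgeR FDR 0.00489). Adm, which encodes the vasodilator peptide adrenomedullin, was at 1.71, 6.05 and 1.67 CPM at 0 h and 7.32, 164 and 110.3 CPM at 6 h (log2 fold change 4.94, SE 1.07, edgeR FDR 0.0188). Its 6 h replicate 1 barely exceeded the 0 h libraries, and the edgeR call was lost for Adm without 0 h replicates 1 and 3 or 6 h replicates 2 and 3 (FDR 0.0590 to 0.0816). The list's count was 2 without 0 h replicate 3, and 1 gene was called lower without 6 h replicate 1. Vegfa, the vascular growth factor, and Ldha, lactate dehydrogenase A, were not called (edgeR FDR 0.0963 and 0.281).

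Of 10 clock genes tested, 1 was called higher and 1 lower, beside 18.2% and 3.07% of all tested genes with a symbol. The list is too short for its count to set it apart from those shares. Ciart, a repressor of the clock, fell from 20.7, 23.6 and 21.6 CPM to 6.33, 7.93 and 6.03 CPM (log2 fold change -1.65, SE 0.21, edgeR FDR 0.00312), and Cry1, also a repressor, rose (log2 fold change 1.10, SE 0.22, edgeR FDR 0.0137). The core gene Per1 was at 374, 241 and 257 CPM at 0 h and 226, 181 and 186 CPM at 6 h (edgeR FDR 0.117). Capsules of both times were collected at the same moment. The call was lost for Cry1 without 0 h replicates 1 and 3 or 6 h replicate 3 (FDR 0.0606 to 0.0717), and 2 clock genes were called lower without 6 h replicate 1.

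With all libraries used, lens identity genes were lower at 6 h PCS where they were called at all. Crygb, a gamma crystallin of fiber cells, was at 142, 94.3 and 238 CPM at 0 h and 2.97, 9.01 and 0 CPM at 6 h (log2 fold change -5.25, SE 0.96, edgeR FDR 0.0114). Lgsn, which encodes lengsin, a lens protein related to glutamine synthetase, was at 356, 314 and 448 CPM at 0 h and 22.9, 51.8 and 15.3 CPM at 6 h (log2 fold change -3.61, SE 0.42, edgeR FDR 0.00290). Both fell below every 0 h library in all 3 libraries at 6 h. Crygf had 48 counts in all at 0 h and 2 at 6 h, with 1.88, 1.15 and 1.35 CPM at 0 h, and its level at 0 h was higher by a ratio of 25.7 (95% interval 6.74 to 218), which covers counting error only (edgeR FDR 0.0208). Counts of the gamma crystallins are uncertain because the genes resemble each other closely. Of 16 crystallins listed, these 2 had a symbol. Birc7, the inhibitor of apoptosis livin, was at 5.304, 3.46 and 5.203 CPM at 0 h and 0, 1.01 and 0 CPM at 6 h (log2 fold change -3.63, SE 1.09, edgeR FDR 0.0484). With Lgsn it made up the 2 genes called lower of 5 tested in the list of lens channels, connexins and beaded filament genes. Without 6 h replicate 1, 1 gene of that list was called higher. Calls were lost for Crygb without 6 h replicate 1 (FDR 0.0530), Crygf without 0 h replicates 1, 2 and 3 or 6 h replicate 3 (FDR 0.0655 to 0.0972) and Birc7 without 0 h replicates 1, 2 and 3 or 6 h replicate 3 (FDR 0.0975 to 0.140).

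Of 8 lens transcription factors tested, only Sox2 was called, from 106, 87.9 and 105 CPM to 61.1, 26.1 and 40.2 CPM (log2 fold change -1.16, SE 0.31, edgeR FDR 0.0355). Prox1, which directs fiber differentiation, was at 922, 1068 and 1106 CPM at 0 h and 713, 223 and 399 CPM at 6 h and was not called (log2 fold change -1.13, SE 0.40, edgeR FDR 0.0795). Pax6, the master regulator of eye development, was at 491, 545 and 516 CPM at 0 h and 592, 213 and 297 CPM at 6 h, where replicate 1 stood above the 0 h libraries and the others below them (log2 fold change -0.41, SE 0.36, edgeR FDR 0.436). Foxe3, which keeps LECs proliferating, was at 208, 123 and 176 CPM at 0 h and 175, 75.05 and 145 CPM at 6 h (edgeR FDR 0.573). Without 6 h replicate 1, 5 of the 8 were called lower, and without any other 1 of the Egr1KO libraries none was. In WT, 6 of the 8 were called lower. No gene of the capsule basement membrane list was called of 4 tested, and 1 was called higher without 6 h replicate 2.

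Markers of red cells, vessels, pigmented tissue and photoreceptors, all outside the lens, were higher at 6 h. Summed over 5 erythrocyte genes, the level was 1.22, 0.960 and 2.71 CPM at 0 h and 268, 332 and 141 CPM at 6 h, and all 5 were called higher. Alas2, the first enzyme of heme synthesis in red cells, had 3 counts in all at 0 h and 1094 at 6 h, a ratio of 340.3 (95% interval 116 to 1653), again for counting error only (edgeR FDR 0.000546). The hemoglobin genes Hba-a2 and Hbb-bt had no count at 0 h and 22.2, 24.9 and 3.77 CPM and 9.898, 14.9 and 5.09 CPM at 6 h, at least 60.2-fold and 35.3-fold higher (edgeR FDR 0.00917 and 0.00312). Hemoglobin genes come in near-identical pairs, so the split between copies is uncertain.

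All 3 tested markers of vascular endothelium were called higher, with a sum over 4 genes of 5.06, 5.47 and 4.06 CPM at 0 h and 10.8, 30.2 and 28.3 CPM at 6 h. Both tested photoreceptor markers were called higher, with a sum of 249.8, 314 and 130.4 CPM at 0 h and 722, 2292 and 1073 CPM at 6 h. Of the cornea markers, none was called, and their sum, nearly all of it Aldh3a1, was 1736, 1354 and 1154 CPM at 0 h and 761, 565 and 766 CPM at 6 h. Among the 6 h libraries, the endothelial, pigment and photoreceptor sums were lowest in replicate 1. The leukocyte and cornea sums were lowest in replicate 2 and the erythrocyte sum in replicate 3. The part of these cells in the gene changes above was not tested.

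**Figure D3:**
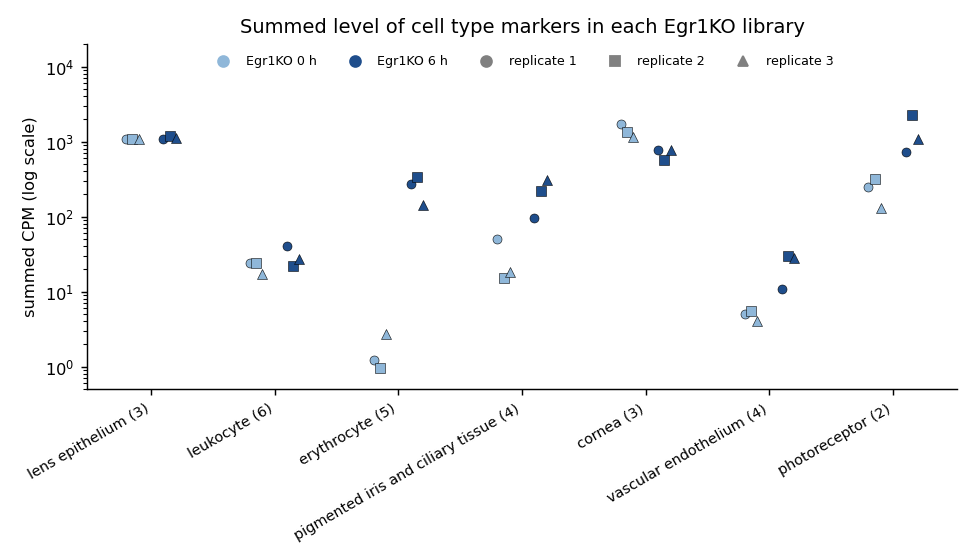
Summed CPM (log axis) of cell type markers in each Egr1KO library at 0 h (pale) and 6 h (dark), with symbols for replicates and the number of genes with a symbol in brackets. The lens epithelium sum stays between 1066 and 1183 CPM in all 6 libraries while its members move in opposite directions, and erythrocyte markers go from at most 2.71 CPM at 0 h to at least 141 CPM at 6 h.

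Among genes with a symbol, an average log2 CPM of at least 1 and no overlap between times, the 10 with the highest log2 fold change included Csf3, the 3 red cell genes, Plaur and Fosb, all given above. Ptx3, a secreted pattern recognition protein, was at 0.653, 0.768 and 0.520 CPM at 0 h and 43.5, 605 and 141 CPM at 6 h (log2 fold change 8.64, SE 1.13, edgeR FDR 0.00430). Htr1d, a serotonin receptor gene, was at 0.0816, 0.192 and 0.728 CPM at 0 h and 18.2, 91.05 and 110.1 CPM at 6 h (log2 fold change 7.86, SE 0.92, edgeR FDR 0.00306). Ntn5, a member of the netrin family, had no count at 0 h and 4.65, 3.100 and 9.23 CPM at 6 h, at least 20.1-fold higher (edgeR FDR 0.00623). Gm8818, a predicted gene, was at 0, 0.384 and 0.312 CPM at 0 h and 37.2, 82.8 and 86.6 CPM at 6 h (log2 fold change 8.28, SE 0.62, edgeR FDR 0.000596). These 4 genes kept their calls whichever library was left out.

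Among the 10 lowest were Crygb, Lgsn and Birc7, given above. Smco3, a membrane protein gene, was at 28.6, 30.4 and 35.5 CPM at 0 h and 7.42, 3.82 and 6.97 CPM at 6 h (log2 fold change -2.31, SE 0.31, edgeR FDR 0.00389). Tinag, a basement membrane protein gene, was at 7.18, 7.78 and 6.45 CPM at 0 h and 0.495, 1.51 and 0.848 CPM at 6 h (log2 fold change -2.83, SE 0.47, edgeR FDR 0.00786). Pabpc4l, a gene of the poly(A)-binding protein family, fell (log2 fold change -2.92, SE 0.52, edgeR FDR 0.00916). The other 4 were the histone genes H2bc11 (log2 fold change -3.06, SE 0.85, edgeR FDR 0.0369) and H3c7 (log2 fold change -2.33, SE 0.59, edgeR FDR 0.0276), which belong to a family of near-identical copies and are uncertain, the muscle creatine kinase gene Ckm (log2 fold change -2.55, SE 0.64, edgeR FDR 0.0273) and Sox5os2, an antisense transcript at Sox5 (log2 fold change -2.38, SE 0.55, edgeR FDR 0.0203). All were low, with no library above 10 CPM. Calls were lost for Pabpc4l without 0 h replicate 3 (FDR 0.0510), H2bc11 without 0 h replicates 1, 2 and 3 or 6 h replicate 2 (FDR 0.0521 to 0.119), H3c7 without 0 h replicates 1, 2 and 3 or 6 h replicates 2 and 3 (FDR 0.0553 to 0.123), Ckm without 0 h replicates 1, 2 and 3 or 6 h replicate 3 (FDR 0.0638 to 0.134) and Sox5os2 without 0 h replicates 1, 2 and 3 or 6 h replicate 3 (FDR 0.0633 to 0.0886).

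The 3 libraries at 6 h did not carry the response to the same extent. Replicate 1 had the lowest level of the 3 for 996 of the 1353 genes called higher (73.6%), against 41.1% of all genes tested. In the AP-1 and immediate early list the order differed: replicate 1 had the highest level for 11 of 21 genes called higher and the lowest for 5. Replicate 1 was lowest in all 10 genes called higher among the Egr1 targets, all 6 fibrotic genes and 9 of 10 interferon genes. Since a gene enters these counts by being called over the same libraries, they are a description and no test.

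**Figure D4:**
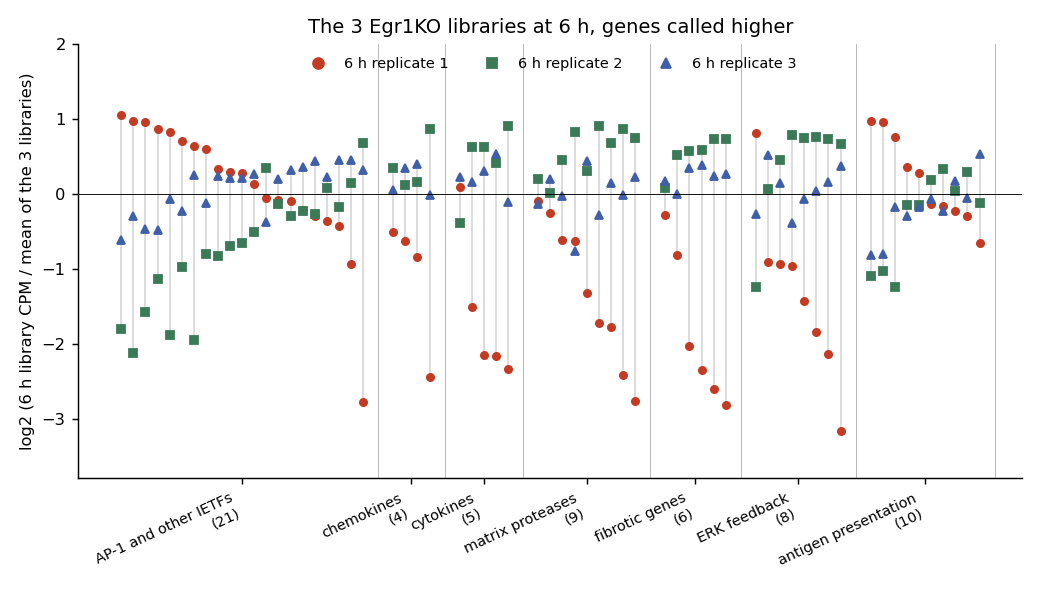
For genes called higher in 7 lists (number of genes in brackets), the log2 ratio of each 6 h library's CPM to the mean of the 3 libraries. Genes are ordered within a list by replicate 1. Replicate 1 (red) is the highest library for 11 of the 21 immediate early genes and the lowest for all 6 fibrotic genes.

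Set beside WT, most genes that responded in intact mice moved the same way in Egr1KO. Of 2082 genes called higher in WT, 1796 were tested in Egr1KO, 1782 of those had a positive fold change there and 1390 exceeded 2-fold. The untested genes, Foxq1 among them, failed the filter on low counts in Egr1KO. A gene near 0 at 0 h passes that filter only if it is high at 6 h. Genes that stayed low thus drop out, and the share among tested genes is no test. Over all genes tested in Egr1KO the median log2 fold change was 0.00299. Of 563 called lower in WT, 548 were tested and 528 had a negative fold change. Calls shared by both genotypes numbered 893 higher genes, which is 42.9% of the WT and 66.0% of the Egr1KO calls, and 175 lower genes, which is 31.1% of the WT and 44.5% of the Egr1KO calls. For reading these shares, 9.28% and 2.69% of all genes tested in Egr1KO were called higher and lower, and 13.5% and 3.65% in WT. No gene called in one direction in WT was called in the other in Egr1KO. Of the Egr1KO calls, 650 higher and 93 lower genes were called in FosBcKO and WT as well, where FosBcKO had 11.2% of its tested genes higher and 1.9% lower.

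List by list the calls ran alike in WT and Egr1KO for some groups and apart for others, with no test of the difference between lists. In WT, 24.1% of tested genes with a symbol were called higher and 4.97% lower. All 21 immediate early genes called in Egr1KO were called in WT, where 23 of the 24 genes tested in Egr1KO were higher, all but Fosl2, and the 8 STAT3 genes, the 5 cytokine genes and the 4 hypoxia genes of Egr1KO were all called in WT too. Of the 10 antigen presentation genes called higher in Egr1KO, 5 were called in WT, and the list's median log2 fold change was 1.92 in Egr1KO and 0.39 in WT. Of the 10 interferon genes, 4 were called in WT, with medians of 2.41 and 1.44. Without WT 0 h replicate 3 the WT median of the antigen presentation list was 1.10. The fibrotic list had medians of 1.04 in Egr1KO and 0.06 in WT, and the WT median was 0.42 without WT 0 h replicate 1. The zonule list had medians of 0.37 and -0.65, with the WT median at -0.43 without WT 0 h replicate 1 and -0.41 without WT 0 h replicate 3. For the lens transcription factors the medians were -0.80 and -1.61. No gene of any list passed the interaction test by edgeR.

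Sizes were set side by side too. Genes called higher in WT and tested in Egr1KO had a median log2 fold change of 2.17 in WT and 1.69 in Egr1KO. The 1301 genes called higher in Egr1KO and tested in WT had 2.11 in Egr1KO and 1.79 in WT. Each genotype's calls thus had the larger median in that genotype. Over 14266 genes tested in both, Pearson's r of the log2 fold changes was 0.791 and Spearman's rho 0.766, as a description across genes, which are not independent. Without 6 h replicate 1 of Egr1KO the shared calls numbered 1605, and without 0 h replicate 3 they numbered 393. They were 529 without 0 h replicate 1, 655 without 0 h replicate 2 and 566 without 6 h replicate 3 of Egr1KO, against 1068 with all libraries.

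**Figure D5:**
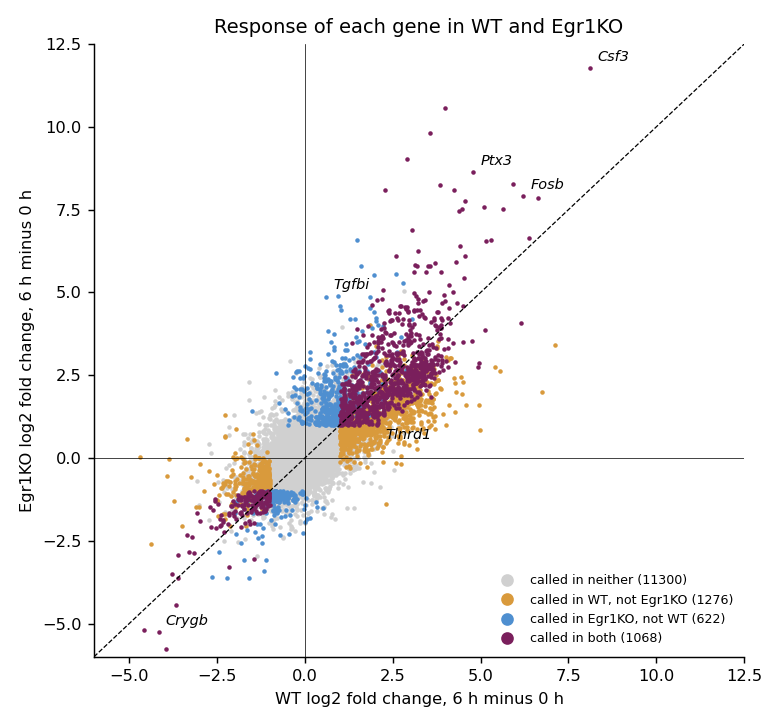
Log2 fold change (6 h minus 0 h) of each gene in WT and in Egr1KO, for the 14266 genes tested in both. Colors mark genes called in both (1068), in WT and not Egr1KO (1276), in Egr1KO and not WT (622) or in neither (11300). The dashed line marks equal change, and genes called in both lie where both fold changes have the same sign.

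Whether any response differed between Egr1KO and WT was tested as an interaction over all 18 libraries. By the edgeR quasi-likelihood F-test, 0 of 17469 genes had an FDR of at most 0.05. At an unadjusted p-value under 0.05 there were 1141 genes (6.53%), with the Egr1KO change above that of WT in 647 (3.7%) and below it in 494 (2.83%). DESeq2 called 2 genes, Sat1 and Tlnrd1 (FDR 0.0423 for both). Without WT 6 h replicate 3, edgeR called Tlnrd1 (FDR 0.0346). Without the filter on low counts, edgeR called 264 genes, with the Egr1KO change above that of WT in 209 and below it in 55.

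Tlnrd1, which encodes a talin rod domain protein that binds actin, had the lowest interaction p among genes whose response was smaller in Egr1KO, of those called in either genotype with an average log2 CPM of at least 1. It was at 10.3, 13.6 and 13.1 CPM at 0 h and 12.8, 16.9 and 15.8 CPM at 6 h in Egr1KO (log2 fold change 0.35, SE 0.22, edgeR FDR 0.285) and at 16.4, 13.2 and 13.2 CPM at 0 h and 70.6, 80.1 and 42.1 CPM at 6 h in WT (log2 fold change 2.08, SE 0.28, edgeR FDR 0.00242). The Egr1KO groups overlapped and the WT groups did not. The difference of the responses was -1.75 on the log2 scale (SE 0.35, edgeR interaction FDR 0.593). Rab20, a small GTPase of endosomes, ran alike. Its level was 2.203, 1.44 and 2.19 CPM at 0 h and 2.77, 2.16 and 2.17 CPM at 6 h in Egr1KO and 1.63, 2.04 and 2.82 CPM at 0 h and 11.03, 10.5 and 11.2 CPM at 6 h in WT, with a difference of -1.91 (SE 0.45, edgeR interaction FDR 0.593).

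Some other genes with low interaction p-values changed more in Egr1KO. Sat1, the enzyme that acetylates spermidine and spermine, was at 17.3, 19.7 and 13.1 CPM at 0 h and 117, 106 and 77.4 CPM at 6 h in Egr1KO and 26.3, 25.9 and 24.1 CPM at 0 h and 72.95, 77.3 and 68.8 CPM at 6 h in WT, with a difference of 1.20 (SE 0.24, edgeR interaction FDR 0.593). Its Egr1KO 0 h libraries all lay below the WT 0 h libraries, and at 6 h replicates 1 and 2 of Egr1KO lay above WT while replicate 3 was level with it. Gadd45g and Gcnt2, a glycan-branching enzyme gene, likewise rose in both genotypes, with differences of 1.42 and 2.06 (SE 0.35 and 0.51, edgeR interaction FDR 0.593 for both). Gcnt2 was at 1.96, 2.59 and 3.43 CPM at 0 h and 35.4, 52.4 and 81.4 CPM at 6 h in Egr1KO (log2 fold change 4.47, SE 0.38, edgeR FDR 0.000800).

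Of genes with a symbol that were tested in Egr1KO, called in either genotype and had an average log2 CPM of at least 1, the remaining 5 of the 10 with the lowest interaction p-values had differences of 2.00 (Gm37376), -1.52 (H4c14, a histone gene), 2.90 (Gm48014), 2.20 (Atp10d, a lipid flippase subunit gene) and 2.38 (Gm20757). All had an edgeR interaction FDR of 0.593. Gm20757 had log2 fold changes of -1.31 in Egr1KO, where it was not called (edgeR FDR 0.0805), and -3.72 in WT. Its positive difference thus stood for a smaller fall in Egr1KO. Among the lists, Egr2 had a log2 fold change of 4.37 in Egr1KO and 2.68 in WT (edgeR interaction FDR 0.719). Tgfbi had 4.87 in Egr1KO and 0.60 (SE 1.07) in WT (edgeR interaction FDR 0.719). Its WT level was 62.8, 2.67 and 4.96 CPM at 0 h and 37.5, 44.4 and 31.3 CPM at 6 h, and without WT 0 h replicate 1, the highest of these libraries, its WT log2 fold change was 3.20 (SE 0.37, edgeR FDR 0.0101). A p that misses the threshold does not show that the responses were equal, and the Egr1 difference given above had an SE of 0.74 on the log2 scale.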

How the data were processed

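RNA of LECs on lens capsules was sequenced as paired ends after ribosomal depletion and stranded library preparation. Per the file headers and the study's methods, the authors aligned reads with HISAT2 and deposited raw read counts per Ensembl gene from HTSeq in union mode. Methods and submitters' notes name different genome builds, so no coordinates are given. The deposited tables hold gene identifiers only, and symbols were paired with them through the identifier and name columns of the study's supplementary workbooks, whose values were not used. These names lean to changed genes.

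After 5 summary rows per file were dropped, each genotype's 6 libraries were filtered (filterByExpr of edgeR 4.0.16), scaled by TMM and tested with the robust quasi-likelihood F-test in R 4.3.3. Benjamini-Hochberg FDR of at most 0.05 and over 2-fold change made a call. The interaction was tested over 18 libraries. Alternatives used DESeq2 1.42.0, the exact test, other filters and scalings, a replicate block and each library left out.

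Named genes were Egr1, up to 3 called members per list and direction, defining members that were not called, the 10 highest and 10 lowest changes, and 10 genes by interaction. Genes named beyond this rule, such as Arc, Cxcl1, Cd74, Ifit1, Ifit3, Dct, Ptprc, Foxq1 and Il19, were chosen after their values were seen. Some genes that the rule picks are not reported here. Members and lists were chosen with earlier results of these data known.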

Additional observations from a re-analysis of the deposited data

Results flagged for a closer look

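Read pairs outside annotated genes, which enter no gene test, made up 21.5% of pairs at 6 h against 11.2% at 0 h in Egr1KO, a difference of 10.3 percentage points. What those pairs are was not tested.

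Among the named genes and list members, 3 genes had no overlap between times in either genotype, with opposite directions in Egr1KO and WT. How many of all genes tested do so is not given here. Separation of the times is frequent: in Egr1KO alone it held with 6 h higher for 18.1% of genes tested and with 6 h lower for 25.2%. Gm48014 had log2 fold changes of 1.41 in Egr1KO (edgeR FDR 0.0387) and -1.51 in WT (edgeR FDR 0.0504), a difference of 2.90 (edgeR interaction FDR 0.593). Its call in Egr1KO was lost whichever of the 6 libraries was left out (edgeR FDR 0.0595 to 0.126). Atp10d had log2 fold changes of 0.74 in Egr1KO, where it was not called (edgeR FDR 0.124), and -1.48 in WT (edgeR FDR 0.0121), a difference of 2.20 (edgeR interaction FDR 0.593). Eno1, the glycolytic enzyme enolase, was at 1068, 990.6 and 1022 CPM at 0 h and 706, 909 and 753 CPM at 6 h in Egr1KO, and at 891, 892 and 934 CPM at 0 h and 1052, 976 and 1017 CPM at 6 h in WT. It was called in neither genotype, with a difference of -0.41 (edgeR interaction FDR 0.766). None of the 3 passed the interaction test.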

How the results depend on the processing

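The number of genes called in Egr1KO was 1746 and moved with single libraries. It ranged from 534 to 3033 when each library was left out, and 456 genes were called in all 6 such fits. Without the fold minimum it was 3089, against 4048 in WT. In FosBcKO it ranged from 935 to 2862 without each library. Genes called in both WT and Egr1KO numbered 393 to 1605 without each library and 1866 without the fold minimum. List members called ranged from 75 to 152 without each library and were 97 without the filter on low counts, against 138 in the main fit. No call of a named gene changed direction under any alternative run. The median log2 fold change over all genes, 0.00299, was -0.0141 with the replicate block. For the interaction, which called 0 genes, DESeq2 called 2, leaving out a library called 0 to 1, and testing without the filter on low counts called 264, of which 263 were also in the filtered test. The cause was not tested. With a replicate block Egr1KO had 1637 calls, list members 138 and the interaction 0. After each gene's mean at its time was subtracted from its log CPM, same-numbered 0 h and 6 h libraries correlated at 0.028, 0.173 and 0.031. Pairs with different numbers lay between -0.141 and 0.106, and 0 h replicate 3 correlated best with 6 h replicate 1. These values do not settle whether the numbers pair the libraries. The labels do not tie them, so no pairing was used in the main fits. Of 1365 alternatives for 91 named genes, 1200 stayed on the same side of the threshold, 161 lost a call and 4 gained a call. Of the losses, 33 came without 0 h replicate 3 and 35 under settings other than leaving out a library. Without the filter on low counts, edgeR lost Csf3 (FDR 0.156), Klf2 (FDR 0.0649), Fos (FDR 0.0663), Cxcl2 (FDR 0.0574) and Srxn1 (FDR 0.0676), among others. These 5 genes kept their calls whichever Egr1KO library was left out. Without the filter the median log2 fold change of all genes moved by 0.21, and in one fit of 18 libraries by 0.11. The share of calls that were higher was 73.8% to 80.4% across scalings. TMM without crystallin and mitochondrial genes was not run, since most crystallins have no symbol here. Depth limits the genes with few counts at 0 h, such as Csf3 and Plaur. The WT list medians without each WT library, TMM without the 10 most abundant genes and the count over genes with a symbol only were chosen after seeing the data.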
